A study of Rattus norvegicus with 43 samples.

Results

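The genes examined here are 45 genes of DNA replication and S phase, the part of the cell cycle in which the genome is copied. They were taken as a list of gene symbols, chosen with earlier results of these data known. Of these, 40 had a probe set annotated to that symbol alone, and each was represented by its brightest probe set, out of 14217 genes named in this way on the array. No value is given for Cdc6, Cdc7, Dbf4, Gins2 and Rrm2. A filter on dim values kept 30 of the 40, among 15521 probe sets in all.

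Replication is prepared in G1, when the origin recognition complex, Cdc6 and Cdt1 load the ring-shaped MCM helicase onto DNA. Cdc7 with Dbf4 and the cyclin E kinase then fire the origins, Cdc45 and the GINS complex join the MCM ring to form the active helicase, and DNA polymerases alpha, delta and epsilon copy the strands. Many of these genes are controlled by E2F transcription factors and are transcribed most in late G1 and S phase, whereas the genes of mitosis peak in G2 and M phase. In the rat anterior pituitary, estrogens are known to drive the proliferation of lactotrophs, the prolactin cells.

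The samples were anterior pituitary glands of 43 male F2 rats from a cross of Copenhagen (COP) females with ACI males. All animals formed 1 group: each had carried an implant with 5 mg of diethylstilbestrol (DES), a synthetic estrogen, for 12 weeks, beginning at 9 weeks of age, and was sacrificed at 21 weeks. Bromodeoxyuridine, which is built into newly made DNA, was injected at 50 mg/kg 4 hours before. No untreated rat was analysed here, so that no value below is a response to DES. Per the design text, animals with extreme pituitary weights were used, 22 with high and 21 with low weights, but no label tells which animal is which and the classes were not compared.

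Animals are named by the number in their label. Animal 43's array differed from the rest: its correlations with them averaged 0.93, whereas those of each remaining array averaged 0.97 to 0.98, and it had a difference between 3' and 5' control probe sets of 1.21 on the log2 scale, against 0.68 to 0.98. Prl, the prolactin gene, lay between 15.40 and 16.14 on the log2 scale and Pou1f1, the transcription factor of prolactin and growth hormone cells, between 12.29 and 13.66. Of the posterior lobe and neural markers, Avp and Oxt did not pass the filter, with means of 5.33 and 5.25. Snap25 and Nefl of the same list passed it, with means of 12.51 and 8.75. A whole gland was measured, so that fewer cells in S phase and less RNA per cell cannot be told apart. Precision is limited by the number of arrays.

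Every level below is log2(intensity + 16) of 1 probe set. Brightness was not calibrated between probe sets, and no amount is compared between genes. The filter lay at a mean of 7.16. Cdt1, with 7.19 ± 0.35 (SD, n = 43), was the member just inside it. Uhrf1 and Ccne1, both with a mean of 6.98, were the members just outside.

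The SD of the 30 members past the filter had a median of 0.24 on the log2 scale and ranged between 0.09 and 0.39 (n = 43). The median over all 15521 probe sets was 0.23, and that over 25 genes of mitosis was 0.33. Without animal 38, whose array is described below, these medians were 0.24 for the members, 0.28 for the mitotic genes and 0.23 for all probe sets. The replication genes thus varied about as much between animals as the median probe set.

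Among the licensing genes, Orc6, a subunit of the origin recognition complex, had a lowest level of 7.81, a median of 8.46 and a highest level of 8.70. Its lowest value belonged to animal 38, and without it the lowest was 8.04. Cdt1, the loader of the MCM ring, lay between 6.28 and 7.79 with a median of 7.24. Gmnn encodes geminin, the inhibitor of Cdt1, and ranged between 7.33 and 9.11 with a median of 8.12. The lowest Cdt1 value and the highest Gmnn value came from the array of animal 43. Orc1, the largest subunit of the recognition complex, was dim with a mean of 5.09.

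Of the MCM subunits, 6 were past the filter. Mcm7 had a lowest level of 10.11, a median of 10.44 and a highest level of 10.76. Mcm2 lay between 8.88 and 9.55 with a median of 9.27, and Mcm4 between 9.18 and 9.91 with a median of 9.54. These were among the narrow distributions, with a highest over lowest fold of 1.57 for Mcm7, 1.59 for Mcm2 and 1.65 for Mcm4. Mcm5 and Mcm6 were wider. Mcm5 lay between 6.72 and 8.45 with a median of 7.87, a fold of 3.31, and Mcm6 between 8.31 and 9.92 with a median of 9.37, a fold of 3.05. In both genes animal 43 was the lowest and animal 38 was next to it, apart from the other 41 animals. Mcm3 lay between 6.99 and 8.07. Mcm10, which helps to activate the loaded helicase, had a mean of 6.93, below the filter.

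Gins4, a subunit of the GINS complex, ranged between 8.22 and 9.16 with a median of 8.76, and Cdc45 between 7.38 and 8.55 with a median of 8.02. Further probe sets of Cdc45 were below the filter, with means of 6.66, 6.18 and 4.51. They correlated with the brightest at -0.09, -0.42 and -0.08 over 42 animals, without animal 38. Gins1 was below the filter, with a mean of 6.78. Among the polymerase genes, Prim1, the small subunit of primase, had a lowest level of 9.01, a median of 9.75 and a highest level of 10.37. Prim2, its large subunit, lay between 8.39 and 9.56 with a median of 9.03. Both subunits thus covered a range of more than 2-fold, with folds of 2.57 and 2.25, and their pairwise correlation over 42 animals, without animal 38, was 0.14. Pold2, a subunit of polymerase delta, lay between 8.68 and 9.64 with a median of 9.28. Pola1, Pold1 and Pole2 had means of 8.01, 7.39 and 7.55, whereas Pola2 and Pole, with 6.11 and 6.79, were below the filter.

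Pcna encodes the sliding clamp that holds the polymerases on DNA. Its lowest level was 11.75, its median 11.94 and its highest 12.81. The highest value belonged to animal 43 and the next highest was 12.22, so that all other animals lay within a narrow band. In the clamp loader, Rfc2 had a lowest level of 8.85, a median of 9.28 and a highest level of 9.67. Rfc5 lay between 8.32 and 10.09 with a median of 9.15, the largest SD of the 30 members at 0.39, and Rfc4 between 8.61 and 10.26 with a median of 9.04. The lowest Rfc5 value belonged to animal 38, and the highest Rfc4 value to animal 43. Rfc3 and Rpa2, the middle subunit of the single-strand binding protein RPA, were narrow, with SDs of 0.14 and 0.16.

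Fen1, the nuclease that trims the flaps of Okazaki fragments, ranged between 8.28 and 9.30 with a median of 8.80. Lig1, the ligase that seals them, ranged between 8.47 and 9.32 with a median of 8.78. Dut, the enzyme that removes dUTP, had the smallest SD of all members, 0.09, with a lowest level of 12.10, a median of 12.32 and a highest level of 12.51. Rrm1, the large subunit of ribonucleotide reductase, lay between 9.51 and 10.48 with a median of 9.93. Tk1, the thymidine kinase of proliferating cells, covered the widest fold of the 30 members, 3.87, between 6.53 and 8.49 with a median of 7.90. Its lowest value came from animal 18, and animal 38 was next with 6.87. Tyms, thymidylate synthase, had a mean of 6.82 and did not pass the filter.

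None of the chromatin genes passed the filter. Uhrf1, which recruits the maintenance DNA methyltransferase, had a lowest level of 5.24, a median of 7.01 and a highest level of 7.83. Chaf1a and Chaf1b, subunits of the histone chaperone CAF-1, had means of 6.74 and 6.94. Among the G1/S regulators, Ccne2, 1 of the E cyclins, lay between 9.61 and 10.91 with a median of 10.15. Ccne1 lay between 5.49 and 7.55 with a median of 7.04. E2f1 lay between 7.11 and 8.55 with a median of 7.89. The plot of levels by animal shows that the lowest values of Uhrf1 and Ccne1 belonged to animal 38. For Ccne1, animal 36 was close to it, at 5.64.

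**Figure D1:**
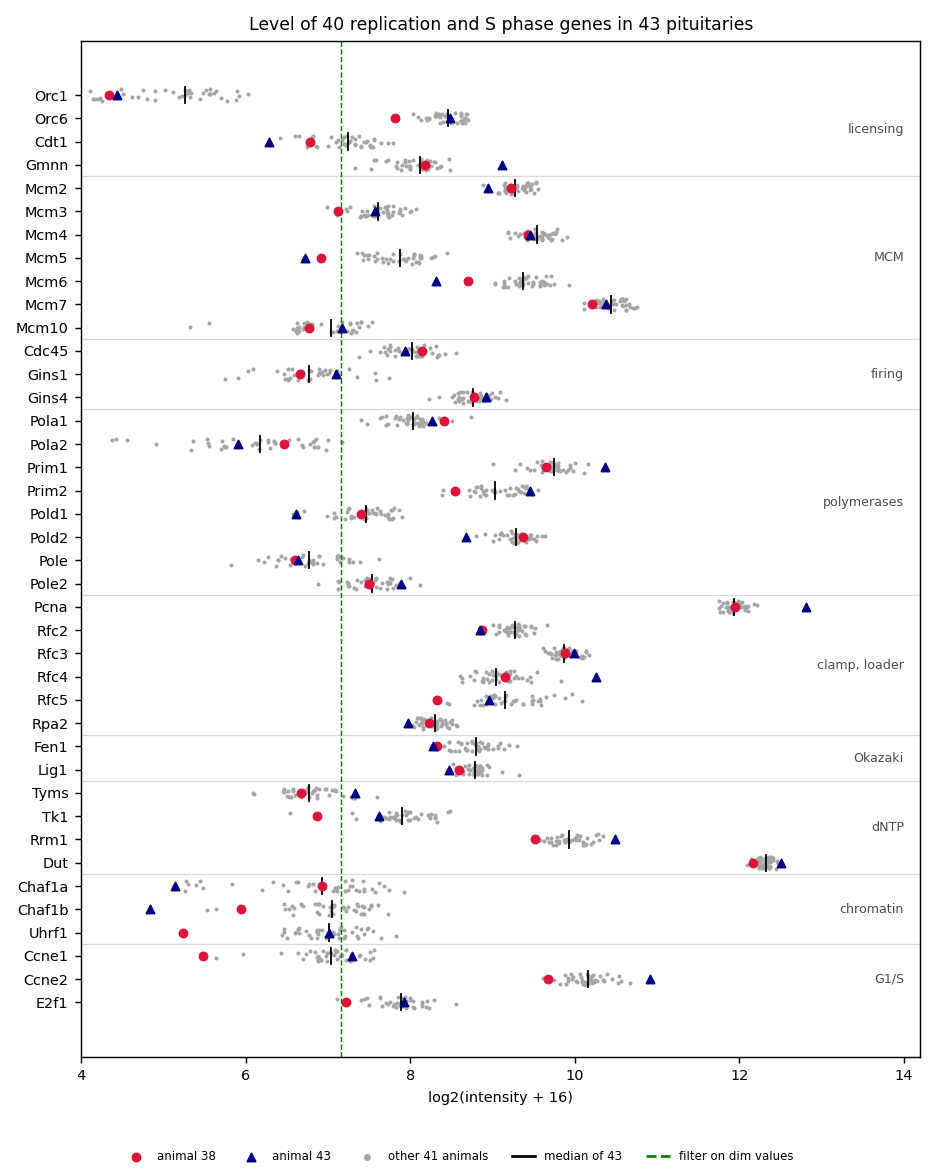
Level of each of 40 members on the log2(intensity + 16) scale (horizontal axis), grouped by role, in animal 38 (red circle), animal 43 (blue triangle) and the other 41 animals (grey points), with the median of 43 as a black line and the filter on dim values as a dashed green line. Uhrf1 in animal 38 lies at 5.24 and Pcna in animal 43 at 12.81, away from all other animals.

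Animal 38 had low levels of some replication genes and not of others. Its mean level of the 30 members, each centred on its mean over 43 animals, was -0.27 on the log2 scale, against -0.14 to 0.14 in the other 42 animals. It was the lowest of 43 animals for 3 of the 30 members (Orc6, Rfc5 and Rrm1), whereas 3.25% of all probe sets past the filter had their lowest value there. It was among the lowest 3 animals for 13 of the 30 members and for 9.33% of all probe sets, and the highest for 0 members and for 4.57% of all probe sets. These are counts over 1 animal, with no replicate check and no test.

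In animal 38, Orc6 was at 7.81, against 8.04 to 8.70 in the other 42 animals. The difference from their mean was -0.65, or -3.54 in SD of the other animals. Tk1 was at 6.87, a difference of -1.03 or -2.97 SD. Mcm5 was at 6.91, a difference of -0.92 or -2.77 SD. In linear intensity, animal 38 had 208.5 for Orc6, 101.1 for Tk1 and 104.3 for Mcm5, against medians of 338.2, 225.4 and 221.4 in the other animals. Mcm6 differed by -0.70 or -2.62 SD, and Rfc2 by -0.39 or -2.60 SD. Rfc5, at 8.32, differed by -2.42 SD and Rrm1, at 9.51, by -2.12 SD.

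The 2 members that stood farthest apart in animal 38 did not pass the filter. Uhrf1 was at 5.24 there, against 6.44 to 7.83 in the other animals, and Ccne1 was at 5.49, against 5.64 to 7.55. The intensity of Uhrf1 was 21.7 in animal 38, against a lowest value of 71.1 and a median of 115.2 in the other animals. Other members were not low: Pcna was at 11.95 in animal 38, against a mean 0.02 higher in the other animals, Mcm2 at 9.22 was 18th from the lowest, and Pola1 at 8.41 was above the mean of the other animals by 0.41.

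Further probe sets of the same genes did not all follow. For Tk1, a second probe set with a mean of 7.75 was also 2nd lowest of 43 in animal 38. For Rfc5, the second probe set, with a mean of 9.12, placed animal 38 at rank 7. For Orc6, the other 2 probe sets, with means of 7.46 and 7.40, placed it at ranks 17 and 38 from the lowest, and they correlated with the brightest at 0.35 and 0.04 over 42 animals. When the probe sets of each gene were averaged, animal 38 was the lowest for 1 of the 30 members.

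The mitotic genes were lower still in animal 38. Their score, the mean centred log2 level of 25 genes, was -1.02, against -0.45 to 0.43 in the other 42 animals. Animal 38 was the lowest of 43 for 18 of these 25 genes. The median difference from the mean of the other animals, in SD of those animals, was -1.18 for the 30 members, -3.73 for the 25 mitotic genes and 0.13 for all probe sets past the filter. Over 33 other replication and S phase genes past the filter it was -0.29.

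Several lists of cell type markers had high scores in the same gland, and others did not. The thyrotroph score (2 genes, Tshb and Trhr) was 1.42 in animal 38, against -0.94 to 1.12 in the other animals, and both genes had their highest value there. The folliculostellate and stem cell score (3 genes) was also the highest of 43, at 0.68, against -0.92 to 0.54. So was the lactotroph score (4 genes), at 0.57, against -0.29 to 0.30, but mainly through Agtr1b, at 9.47 against a mean of 7.80 over 43 animals, while Prl was at rank 37 from the lowest and Drd2 at rank 31. The gonadotroph score (5 genes) was 0.57, against -0.78 to 0.67, with Fshb the highest of 43 and Lhb at rank 11. The endothelial score (6 genes) was 0.24, against -0.36 to 0.30, and the erythroid score (2 genes) 1.13, against -0.92 to 1.51, both at rank 41. Lists near the middle were the somatotroph score (4 genes), at 0.06 against -0.71 to 0.68, the macrophage and leukocyte score (12 genes), at -0.06 against -0.32 to 0.30, and the posterior lobe and neural score (2 genes), at -0.07 against -0.88 to 0.80. The 3' to 5' difference of the array was 0.79, within the range of the others. The part of these markers in the low replication genes was not tested.

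**Figure D2:**
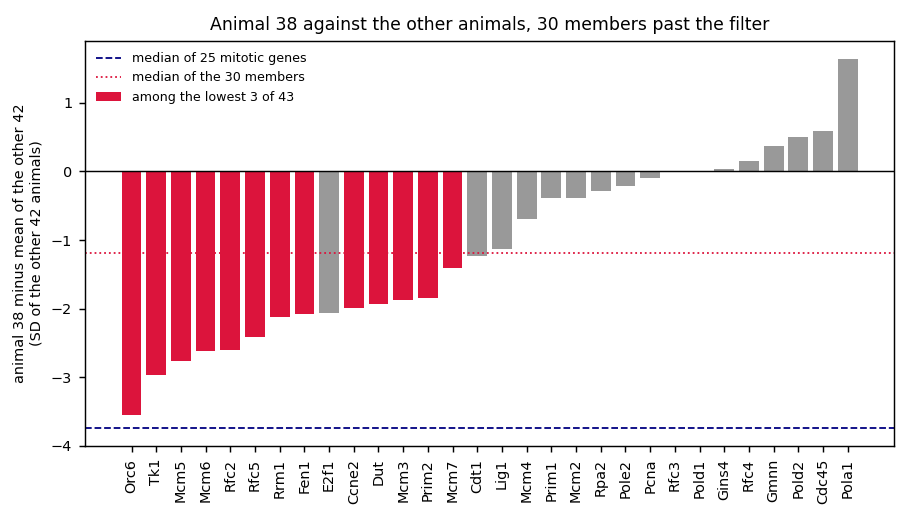
Difference between animal 38 and the mean of the other 42 animals, in SD of those animals (vertical axis), for each of the 30 members past the filter. Red bars mark the 13 members for which animal 38 was among the lowest 3 of 43. The dotted line is the median of the members (-1.18) and the dashed line that of 25 mitotic genes (-3.73).

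The array of animal 43 held the extreme value of many members in both directions. It was the lowest of 43 for 8 of the 30 members (Cdt1, Mcm5, Mcm6, Pold2, Rfc2, Rpa2, Fen1 and Lig1), as for 25.4% of all probe sets past the filter, and the highest for 7 (Gmnn, Prim1, Pcna, Rfc4, Rrm1, Dut and Ccne2), as for 16.4% of all probe sets. With this array left out, animal 38 was the lowest for 7 of the 30 members. The share of all probe sets lowest in animal 38 without this array is not given here, so that the rise is not particular to the members.

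The levels were then regressed on the 3' to 5' difference of the arrays over 42 animals, without animal 38 (limma, 15521 probe sets). Rfc4, Pcna, Gmnn, Ccne2, Dut and Prim1 were higher at a larger difference, 6 of 30 members, whereas Mcm6, Cdt1, Mcm5, Pold2 and Rfc2 were lower, 5 of 30. Over all probe sets 11.5% were called higher and 20% lower at an adjusted p of 0.05. The slope was 1.32 ± 0.24 for Pcna (SE, adjusted p = 6.21e-05, limma) and -1.92 ± 0.36 for Mcm6 (adjusted p = 6.94e-05, limma). Without animals 38 and 43, 0 members were called, the slope being 0.47 for Pcna (adjusted p = 0.60) and -1.13 for Mcm6 (adjusted p = 0.348). The share of all probe sets called in that fit is not given here, so that the drop is not shown to be particular to the members.

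Pairs of members were only weakly related. Over the 435 pairs of the 30 members, the median Pearson r between animals was 0.03 (42 animals, without animal 38), against 0.01 over all 44241121 pairs of 9407 genes past the filter and 0.30 over the 300 pairs of mitotic genes. With animal 38 included the medians were 0.06 for the members, 0.01 for all genes and 0.44 for the mitotic genes. An r above 0.5 was found for 1.38% of the member pairs and for 3.06% of all pairs. The 54 pairs within a role had a median of 0.06 and the 381 pairs between roles one of 0.03. These correlations are given as a description, and the points share the normalization of their array.

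The highest r among the members belonged to Pcna and Rfc4, with 0.68 (Spearman rho 0.53), Prim1 and Rfc4, with 0.67 (rho 0.49), and Rfc4 and Ccne2, with 0.62 (rho 0.48). The lowest belonged to Mcm6 and Pcna, with -0.66 (rho -0.39), and Cdt1 and Pcna, with -0.59 (rho -0.50). These values were nearer to 0 once animal 43 was left out. Without animals 38 and 43, r was 0.46 for Pcna and Rfc4, 0.58 for Prim1 and Rfc4, 0.49 for Rfc4 and Ccne2, -0.34 for Mcm6 and Pcna and -0.45 for Cdt1 and Pcna. The highest of the 435 pairs was then Gins4 and Pcna, with 0.59 (rho 0.59).

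Within the roles with 15 pairs each, correlations were mostly low. Among the 15 pairs of the 6 MCM subunits past the filter, r ranged between -0.19 and 0.56 with a median of 0.07. Mcm5 and Mcm6 gave the highest value, 0.56, which was 0.34 without animals 38 and 43. Mcm2 and Mcm6 were at 0.48, and at 0.38 without both. The 15 pairs of the clamp, its loader and Rpa2 had a median of -0.09, and the 15 pairs of the polymerase and primase genes one of -0.02. Roles with fewer pairs differed. The 3 pairs of Tk1, Rrm1 and Dut had a median of 0.29, and the 3 pairs of Orc6, Cdt1 and Gmnn one of 0.07. The value was 0.28 for Cdc45 and Gins4, 0.12 for Fen1 and Lig1, and -0.15 for Ccne2 and E2f1. The heat map of pairs shows no block along the diagonal for any role.

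**Figure D3:**
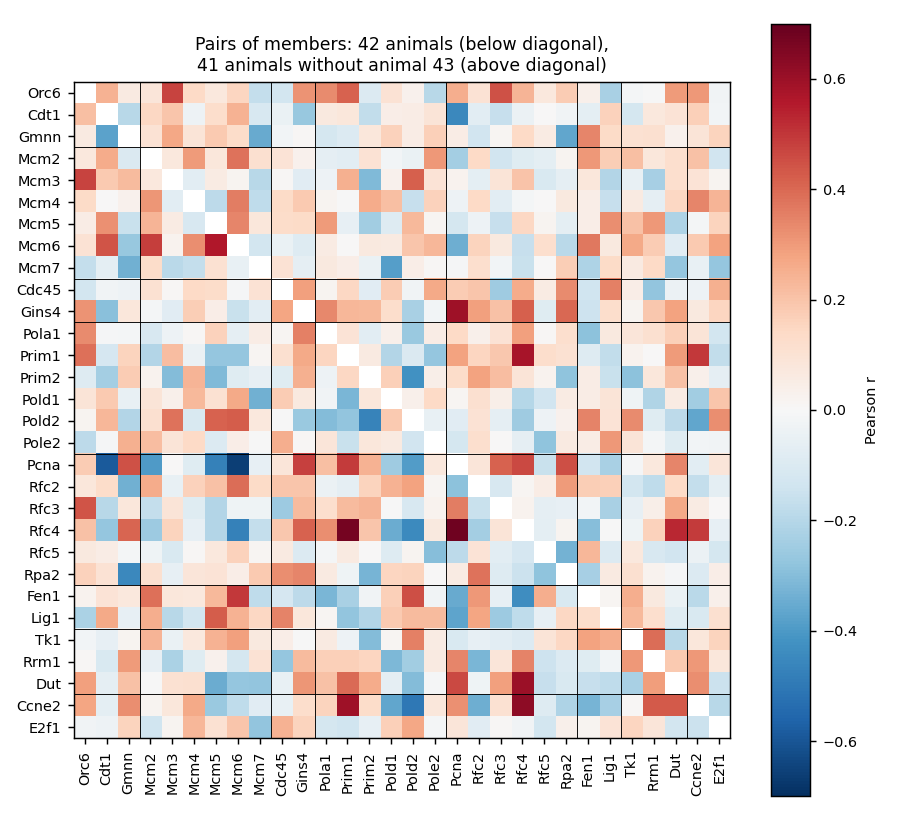
Pearson r between animals for each pair of the 30 members past the filter, ordered by role with black lines between roles (colour scale from blue, negative, to red, positive), over 42 animals without animal 38 below the diagonal and over 41 animals without animals 38 and 43 above it. Pcna and Rfc4 are at 0.68 below the diagonal and at 0.46 above it.

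The question was then which replication genes followed the mitotic genes from animal to animal. Levels were regressed on the mitotic score over 42 animals (limma, 15491 probe sets, score genes left out), so that a slope of 1 means that a gene changed by the same log2 amount as the mean of the mitotic genes. Mcm6 was the 1 member of 30 called higher at a higher score, with a slope of 0.92 ± 0.21 (SE, adjusted p = 0.0243, limma). No member was called lower. Over all probe sets 0.374% were called higher and 0.394% lower.

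Most of the other members had positive slopes that did not pass the test: 25 of the 30 slopes were positive, as were 51.2% of all slopes, and 9 members had an unadjusted p below 0.05, as did 16.8% of all probe sets. The median slope was 0.26 over the members and 0.01 over all probe sets. Mcm5 followed Mcm6 with a slope of 0.90 ± 0.28 (adjusted p = 0.0900, limma), Mcm2 had 0.44 ± 0.15 (adjusted p = 0.125, limma), Tk1 0.71 ± 0.31 (adjusted p = 0.229, limma) and Orc6 0.37 ± 0.17 (adjusted p = 0.248, limma). The helicase subunits Mcm6, Mcm5 and Mcm2 were thus the 3 members with the highest t.

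At the other end were Pcna, with a slope of -0.25 ± 0.17 (adjusted p = 0.470, limma), Mcm7 with -0.13 ± 0.16, Prim1 with -0.09 ± 0.23, Prim2 with -0.09 ± 0.27 and Rfc5 with -0.02 ± 0.34. None of the 5 passed the test, and differences between the slopes of 2 members were not tested. Pcna, a common marker of proliferating cells, was therefore not called in either direction in these glands. It lay at 11.95 in animal 38, whose mitotic score was the lowest, and at 11.76 in animal 11, whose score was the highest.

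**Figure D4:**
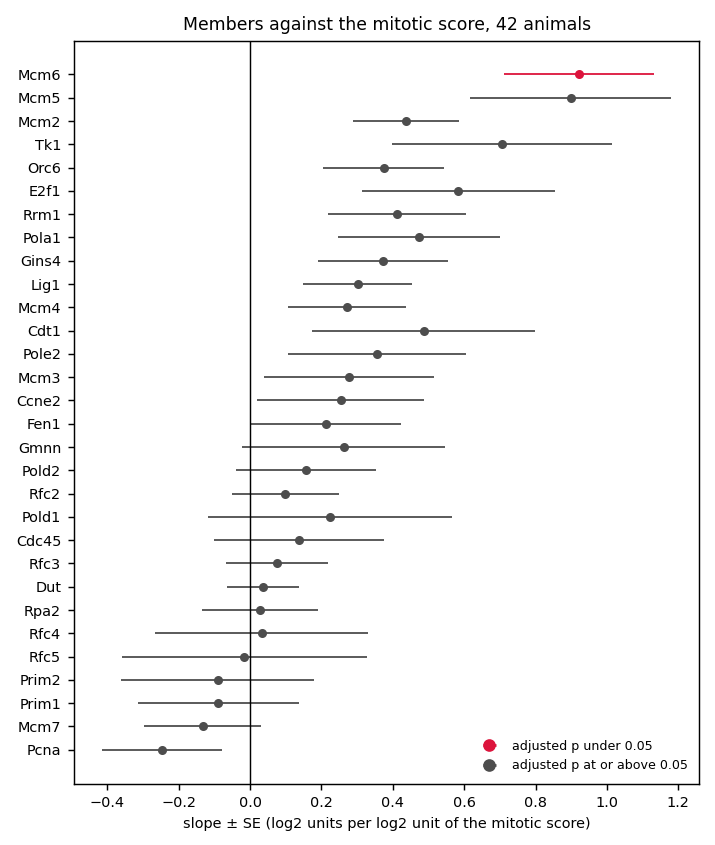
Slope of each of the 30 members on the mitotic score with its SE (horizontal axis, log2 units per log2 unit of the score), over 42 animals and ordered by moderated t. Mcm6, at 0.92, is the 1 member called (red), and 25 of the 30 slopes lie above 0.

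With animal 38 included, 4 of 30 members were called higher: Mcm6 with a slope of 0.80 (adjusted p = 0.000907), Mcm5 with 0.89 (adjusted p = 0.00541), Orc6 with 0.50 (adjusted p = 0.0103) and Tk1 with 0.85 (adjusted p = 0.0157, limma in each case). Animal 38, with a score of -1.02 against -0.45 to 0.43 in the others, is a lone far point that can set a slope. The share of all probe sets called in this fit is not given here, so that the count is not particular to the members. The Mcm6 call was lost where the animal number entered the fit, as a step between numbers 22 and 23 (slope 0.63, adjusted p = 0.480) or as a spline (slope 0.67, adjusted p = 0.409), and within numbers 1 to 22 (slope 0.48, adjusted p = 0.571) and numbers 23 to 43 without 38 (slope 1.23, adjusted p = 0.973). The runs hold 22 and 21 animals, the sizes of the high and low weight classes in the design text. No label ties the numbers to these classes, so that a step in number and the weight class cannot be told apart here. The slope kept its sign in each of these fits, and without animals 38 and 43 the call was kept, with a slope of 0.72 (adjusted p = 0.0273, limma).

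Averaged over the list, the members were related to the mitotic genes although single pairs of members mostly were not related to each other. The mean profile of the 30 members correlated with the mitotic score at r = 0.70 (Spearman rho 0.70, 42 animals), at 0.70 without animals 38 and 43, and at 0.65 without animal 38 and the 2 animals farthest from the median score, 21 and 11. It was 0.66 within numbers 1 to 22 and 0.75 within numbers 23 to 43 without 38. The profile itself was narrow, with an SD of 0.06 on the log2 scale, against 0.16 for the mitotic score (42 animals). The mean profile of the 33 other replication and S phase genes past the filter correlated with the mitotic score at 0.44 (rho 0.41, 42 animals). No p is given, since the genes of these lists were chosen as genes of the cell cycle with results of these data known.

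**Figure D5:**
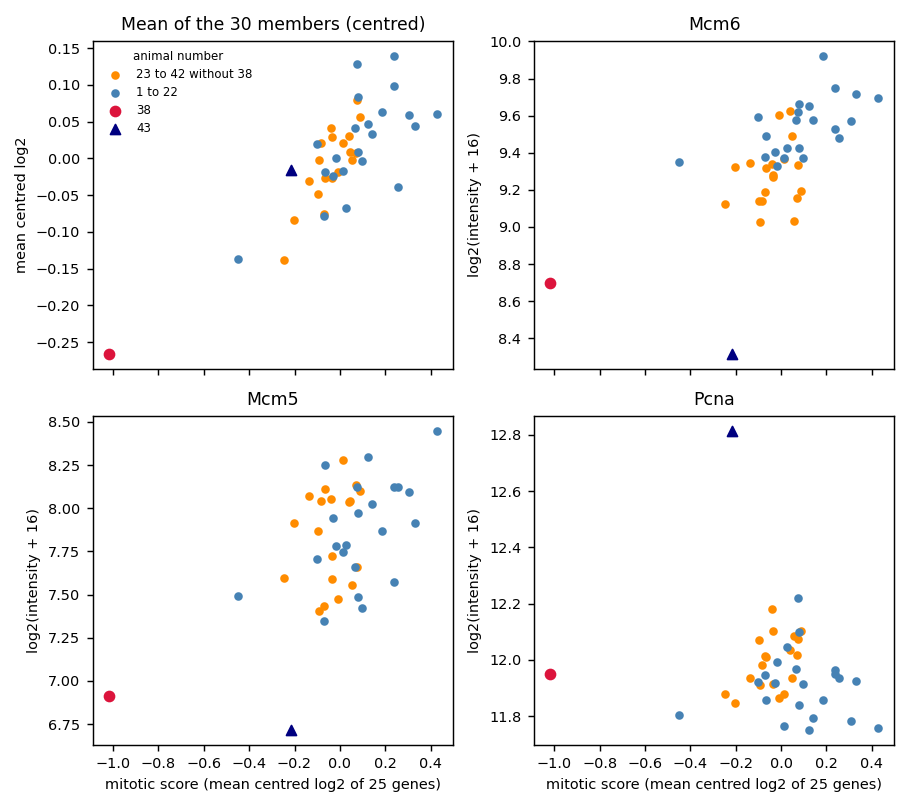
Mean centred level of the 30 members and log2(intensity + 16) of Mcm6, Mcm5 and Pcna (vertical axes) against the mitotic score (horizontal axis), 1 point per animal, coloured by animal number. Animal 38 (red) lies at a score of -1.02 in all panels and animal 43 (blue triangle) is the lowest for Mcm6 and Mcm5 and the highest for Pcna.

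The promoters of the members were examined for the letters of E2F sites, since E2F is the known regulator of many S phase genes. RefSeq promoter windows of 300 bases, 250 before the gene start and 50 after it (assembly GRCr8), were available for 35 of the 40 members. The windows were searched on both strands for TTTCCCGC, TTTCGCGC, TTTGCCGC or TTTGGCGC, matches that may overlap one another. A match was found in 15 of the 35 member windows (42.9%), against 2.25% of all 27457 windows. CCAAT, the box bound by NF-Y, was found in 57.1% of the member windows, against 37.7% of all windows, and both kinds in 28.6%, against 0.819%. TTTGAA or TTCGAA, the letters of the CHR element of many genes of mitosis, were found in 14.3%, against 19.5%. A match describes the letters of the window and is not a site.

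The windows of the 3 members with the highest t on the mitotic score, Mcm6, Mcm5 and Mcm2, are printed beside that of Pcna, which had the lowest. They are given 5′ to 3′ on the strand of the gene, with the E2F letters and CCAAT, on either strand, in capitals.
Mcm6, chr13:42404303-42404602, minus strand: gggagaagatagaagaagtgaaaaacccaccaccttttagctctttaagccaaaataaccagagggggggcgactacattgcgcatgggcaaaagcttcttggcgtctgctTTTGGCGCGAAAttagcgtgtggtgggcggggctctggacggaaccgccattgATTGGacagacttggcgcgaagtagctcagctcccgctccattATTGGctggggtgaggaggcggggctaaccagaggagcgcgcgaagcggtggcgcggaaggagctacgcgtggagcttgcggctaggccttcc
Mcm5, chr19:13488563-13488862, plus strand: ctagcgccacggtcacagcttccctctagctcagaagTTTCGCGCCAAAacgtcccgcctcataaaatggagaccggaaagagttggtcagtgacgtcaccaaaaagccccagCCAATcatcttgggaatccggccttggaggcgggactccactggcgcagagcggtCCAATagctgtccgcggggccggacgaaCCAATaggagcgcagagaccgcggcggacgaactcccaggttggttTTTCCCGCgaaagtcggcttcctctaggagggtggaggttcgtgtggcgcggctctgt
Mcm2, chr4:122918045-122918344, minus strand: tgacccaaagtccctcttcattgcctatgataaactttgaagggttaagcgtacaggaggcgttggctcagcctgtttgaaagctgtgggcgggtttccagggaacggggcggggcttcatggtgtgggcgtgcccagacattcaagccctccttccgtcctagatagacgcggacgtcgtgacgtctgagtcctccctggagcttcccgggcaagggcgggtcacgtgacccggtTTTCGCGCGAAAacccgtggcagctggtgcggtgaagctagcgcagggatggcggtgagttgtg
Pcna, chr3:139955771-139956070, minus strand: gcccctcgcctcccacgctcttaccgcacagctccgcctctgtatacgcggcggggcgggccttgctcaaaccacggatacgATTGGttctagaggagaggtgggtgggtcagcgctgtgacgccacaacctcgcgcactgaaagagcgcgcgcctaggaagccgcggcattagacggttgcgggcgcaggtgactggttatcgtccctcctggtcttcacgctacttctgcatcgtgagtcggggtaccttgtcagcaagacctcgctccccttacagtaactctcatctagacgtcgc
The Mcm6 window held 2 overlapping E2F matches and 2 CCAAT matches, the Mcm5 window 3 of each, and the Mcm2 window 2 overlapping E2F matches and 0 CCAAT matches. In the Pcna window 0 E2F matches and 1 CCAAT match were found. Whether matches and slopes were related over the members was not tested. Mcm7, with a slope of -0.13, had 2 E2F and 3 CCAAT matches, whereas Tk1, with 0.71, had 0 of either.

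Scores of other cell types were examined in the same way, over 42 animals. On the macrophage and leukocyte score, 0 of 30 members were called in either direction (limma), 3 had an unadjusted p below 0.05, and 0.123% of all probe sets were called higher and 0.0451% lower. On the endothelial score, Mcm6 (-0.91 ± 0.20, adjusted p = 0.00112, limma), Mcm2 (-0.46 ± 0.14), Mcm4 (-0.46 ± 0.15) and Fen1 (-0.55 ± 0.19) fell with a rising score and 0 members rose. This is 4 of 30, where 8.52% of all probe sets fell and 8.15% rose. On the gonadotroph score, Mcm6 (-0.33 ± 0.08, adjusted p = 0.00148, limma), Mcm4 (-0.21 ± 0.06) and Mcm2 (-0.15 ± 0.06) fell, 3 of 30, where 11.8% of all probe sets fell and 12.2% rose. Both shares of members lie near these backgrounds.

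The scores were themselves related to one another. Over 42 animals the mitotic score correlated at -0.40 with the endothelial, -0.38 with the gonadotroph, -0.40 with the thyrotroph and -0.44 with the erythroid score. Mcm6 correlated with these at -0.58, -0.55, -0.60 and -0.62. Correlations with the scores of the other marker lists lay between -0.33 and 0.07 for the mitotic score and between -0.49 and -0.19 for Mcm6. With the animal number as a step or a spline, or within either run of numbers, 0 members were called on the endothelial or the gonadotroph score. The shares of all probe sets called in those fits are not given here, so that these counts are not particular to the members. The gonadotroph score was above 0 in 20 of the 21 animals numbered 23 to 43 and in 0 of the 22 numbered 1 to 22. With the mitotic score as a further term, Mcm6 was still called on the endothelial score (slope -0.66, adjusted p = 0.0254, limma) and on the gonadotroph score (slope -0.24, adjusted p = 0.0268, limma).

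The genes outside the list whose levels were most like the mean profile of the members included genes of mitosis. Among 9377 genes past the filter, the highest r over 42 animals was that of Ect2, with 0.70 (rho 0.66), followed by Cks2 with 0.69 (rho 0.67), Cdk1 with 0.68 (rho 0.64) and Zfp367 with 0.65 (rho 0.63). Ect2 is an exchange factor of cytokinesis, Cks2 a small partner of cyclin-dependent kinases and Cdk1 the kinase of mitotic entry. Racgap1, Spc24, Mki67, Ccnb1, Pbk, Mis18a, Pttg1, Usp1, Cenpf, Mnd1 and Shcbp1 completed the 15 genes with the highest r, between 0.62 and 0.53. Of the 15, 6 belonged to the mitotic list. Usp1, a deubiquitinase that acts on Pcna, was the 1 gene among them from the list of other replication and S phase genes. These correlations are a description of likeness.

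A second list held 58 other genes of replication, S phase and the replication checkpoint, of which 50 had a value and 33 were tested against the mitotic score. Topbp1, which activates the checkpoint kinase ATR, was the 1 gene called higher, with a slope of 1.03 ± 0.22 (SE, adjusted p = 0.0121, limma), and 0 were called lower. Ccna2, cyclin A, had a slope of 1.81 ± 0.47 (adjusted p = 0.0505, limma) and Dscc1, a subunit of an alternative clamp loader, 0.85 ± 0.25 (adjusted p = 0.0679, limma). The lowest t belonged to Pole4 (-0.37 ± 0.20), Rpa3 (-0.49 ± 0.37) and Supt16h (-0.16 ± 0.13). Slopes were positive for 18 of the 33, with a median of 0.04, against 25 of 30 and 0.26 for the members.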

How the data were processed

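Labelled RNA of 43 anterior pituitaries was hybridised to 1 array each. The deposited table of the authors holds the intensity of each probe set in each animal. It had been scaled, per the deposited values, to a mean without the lowest and highest 2% of 500.2 on every array, with medians between 123.1 and 142.0. The summarising software was not given in the sources used here. No 2 arrays held identical values. Of 31099 probe sets, 57 were controls.

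To each intensity 16 was added and the log2 taken, a scale that understates changes of dim probe sets. Genes were named from the platform annotation where it gave a single symbol. Where a gene had several, its brightest probe set on average stood for it. The filter kept the brighter 15521 probe sets, those past the median mean level, controls aside. A score is the mean of its genes' log2 levels after centring each gene. Levels were regressed on scores with limma 3.58.1 in R 4.3.3 (lmFit and eBayes) across all probe sets kept, without animal 38, with Benjamini-Hochberg adjustment and a threshold of 0.05. The procedure was tested on simulated data. Differences in animal 38 and correlations are descriptions with no test.

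The members and gene lists were chosen with earlier results of these data known. Named in full are, by rule, the member with the brightest probe set in each role, the 5 members farthest below the others in animal 38, the 5 highest and 5 lowest in t on the mitotic score, members called negative in any fit, those next to the filter, the 15 genes most like the members, and the 3 highest and 3 lowest other replication genes. Alternatives were the pseudocount (1 or 64), the filter, quantile or median normalization, averaged probe sets, the animals included and further terms in the fit.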

Additional observations from a re-analysis of the deposited data

How the results depend on the processing

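Settings are compared by the number of members called, in either direction. Shares over all probe sets under the alternatives are not given here, so that no change in a count below is shown to be particular to the members. On the mitotic score the count was 1 of 30, Mcm6, and 4 with all 43 animals, 2 with array medians subtracted (Mcm6 and Mcm2) and 0 with the animal number as a step or a spline or within either run of numbers. The count of other replication genes was 1, and 3 with all 43 animals or array medians subtracted, 2 without animals 38 and 43, with pseudocount 64, quantile normalization, ranks of the score or array quality as a covariate, and 0 with the step, the spline or within either run. On the macrophage and leukocyte score the count was 0, and 2 under a stricter filter. On the endothelial score it was 4, and 2 without animals 38 and 43 or without a filter, 1 under a stricter filter or with the mitotic score as a covariate, and 0 with the step, the spline or within either run. On the gonadotroph score it was 3, and 0 in the same 4 fits. On array quality it was 11, and 7 with quantile normalization, 1 with the spline, and 0 without animals 38 and 43, within numbers 1 to 22 or with ranks. The members lowest in animal 38 were 3, and 7 without animal 43, 5 without a filter or with quantile normalization, and 1 with averaged probe sets. Signs turned for Mcm2 on the gonadotroph score with the spline (slope 0.00957), and within numbers 1 to 22 on array quality for Ccne2 (-0.74), Dut (-0.0927), Prim1 (-0.36) and Rfc4 (-0.25). Runs of numbers hold fewer animals; other causes were not tested. The median correlation of member pairs stayed between -0.02 and 0.07 and their median SD between 0.17 and 0.27 under the alternatives run. A stricter filter left fewer than 2 genes in the mitotic and gonadotroph scores and gave no value. Signal over background limits the 10 members below the filter. No paired analysis was possible because the animals form 1 group.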
